A study of Mus musculus with 8 samples.

Results

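The matricellular and adhesive glycoprotein genes Thbs1, Thbs2, Sparc, Postn, Tnc, Spp1, Fn1, Ccn1 and Ccn2 were looked up in a table of cluster markers from single-cell RNA sequencing of white fat cells. The 9 genes were chosen by name, and each had at least 6 entries in the table, which lists 3903 gene symbols. Preadipocytes came from the inguinal white fat of C57BL/6 mice that were either wild type (WT) or lacked the nucleosome-binding proteins HMGN1 and HMGN2 (Hmgn1-/- and Hmgn2-/-, DKO). They were cultured on plates coated with collagen and taken at day 0 or day 6 of induced browning. Induction used insulin, dexamethasone, IBMX, T3 and rosiglitazone, followed by a maintenance medium with insulin and T3, for both genotypes alike. Each genotype and day gave 2 samples, 8 in all.

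The table compares each of 12 cell clusters, numbered 0 to 11, with all other cells after the cells of the 8 samples had been pooled. No value in it belongs to 1 sample, genotype or day, so DKO was not compared with WT, nor day 6 with day 0, and no value below has a replicate or an error between replicates. Without replicates it cannot be said which neighbouring clusters in an order of levels differ. Each entry gives the log2 fold change of the cluster against all other cells and the percentage of cells in which the gene was detected, inside and outside the cluster. An entry was called higher or lower where the deposited adjusted p was below 0.05 and the log2 fold change was 0.25 or more in size. That p treats cells as replicates and serves here to select entries. A gene without an entry in a cluster missed a minimum of the authors' comparison there, which is not a level of 0.

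Matricellular proteins are secreted into the extracellular matrix, where they bind growth factors, proteases and cell surface receptors such as integrins and tune adhesion rather than build the matrix scaffold. Fibronectin is the adhesive glycoprotein that links matrix fibres to integrins. In adipose tissue these proteins come largely from stromal and progenitor cells, which lay down and remodel the matrix around fat cells, and adipocyte differentiation goes with a change of the matrix from a fibronectin-rich to a basement membrane type.

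Over the 12 clusters the 9 genes had 76 of 108 possible entries, of which 16 were called higher and 32 lower. Called entries made up 63.2% of the entries of these genes and 56.1% of all 13337 entries in the table. The genes were widely listed. All 9 had entries in at least 6 clusters, as did 21.2% of all genes in the table, and 6 of the 9 were called in at least 5 clusters, against 8.51% of all genes. The range from the highest to the lowest log2 fold change ran from 2.13 for Tnc to 5.20 for Thbs1, where the median over the 825 genes with at least 6 entries was 1.48. Of those 825 genes, 1.21% had a wider range than Thbs1 and 25.3% a wider one than Tnc. The lowest log2 fold change lay in cluster 11 for 8 of the 9 genes and in cluster 8 for Ccn2. For Ccn2 the values of clusters 8 and 11 were close, at -2.09 and -2.06. Its detection was lower in cluster 11, at 1.6%, than in cluster 8, at 2.8%. The highest values were spread over clusters 0, 1, 3 and 7.

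**Figure D1:**
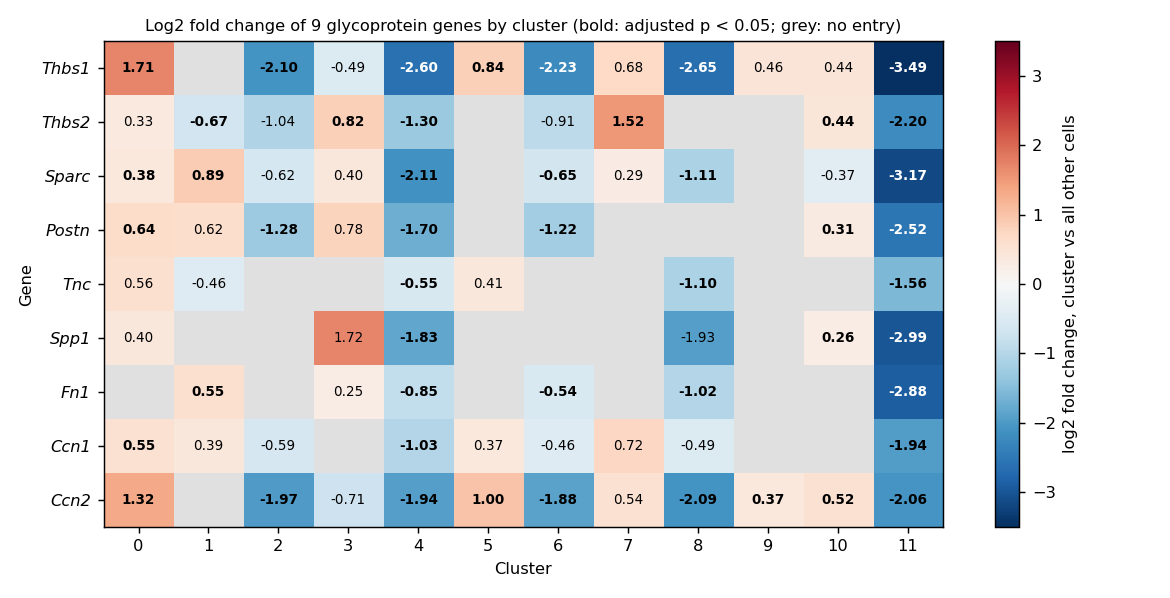
Log2 fold change of each of the 9 genes (rows) in each of the 12 clusters (columns) against all other cells, from the authors' table. Red is higher and blue lower, bold values have an adjusted p below 0.05 and grey cells have no entry. Clusters 4 and 11 are blue for all 9 genes, and the deepest value is Thbs1 in cluster 11 at -3.49.

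Detection over all cells was solved from the entries of each gene and the shares of the clusters. It came to 96.7% for Sparc, 94.1% for Fn1, 80.1% for Postn, 78.1% for Thbs2, 77.6% for Ccn1, 73.8% for Thbs1, 61.8% for Spp1, 57.5% for Tnc and 48.0% for Ccn2. The entries of 1 gene gave values within 0.0978 percentage points of each other. Differences between genes in detection also depend on how well each transcript is captured and are not differences of expression.

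**Figure D2:**
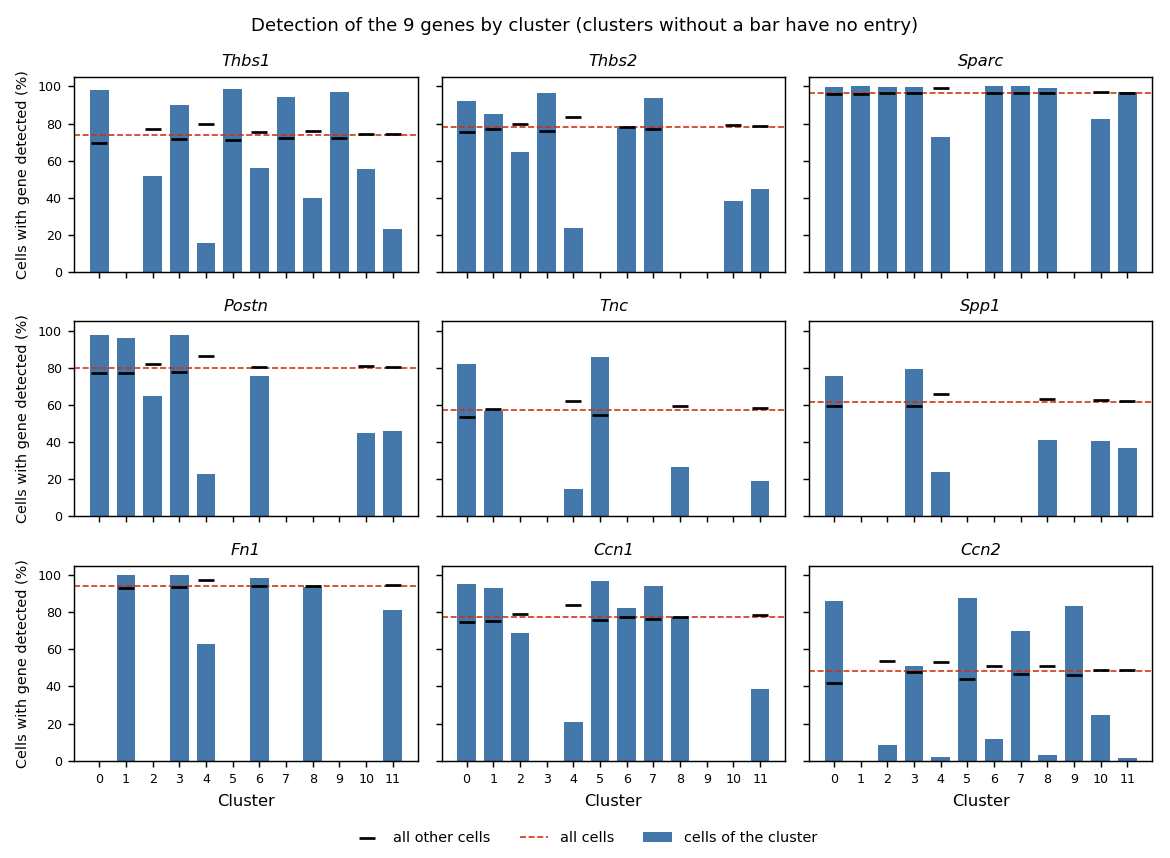
Percentage of cells in which each gene was detected, by cluster (bars), with the percentage in all other cells (black ticks) and over all cells (dashed line). Clusters without a bar have no entry. Sparc bars lie between 73.0% and 100%, while Ccn2 bars run from 1.6% to 87.5%.

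The thrombospondins Thbs1 and Thbs2 encode trimeric glycoproteins that bind the receptors CD36 and CD47, and thrombospondin 1 can release TGF-beta from its latent complex. Thbs1 (chromosome 2, 118111876 to 118127133, plus strand, GRCm38) led cluster 0, where its log2 fold change was 1.71 and 98.3% of the cells had it, compared with 69.7% of the cells outside. It was also higher in cluster 5, at 0.84, where 98.5% of the cells had it. Positive values in clusters 7, 9 and 10 (0.68, 0.46 and 0.44) did not pass the threshold.

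Thbs1 was lower in 5 clusters. In clusters 2, 6, 4, 8 and 11 the log2 fold changes were -2.10, -2.23, -2.60, -2.65 and -3.49. Detection there was 51.7%, 56.3%, 15.6%, 40.2% and 23.4% in the same order. Put on the scale of all cells, the mean of Thbs1 plus the pseudocount of 1 reached 246% in cluster 0 and 9.02% in cluster 11, a ratio of 27.3. Thbs1 had no entry in cluster 1, but the remainder of its values placed detection there at 93.6% and the level at 86.2% of all cells. For genes listed in every cluster, leaving out and recovering the value of cluster 1 missed by at most 0.341 percentage points in detection and 2.10 points in level.

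Thbs2 (chromosome 17, 14665500 to 14694235, minus strand) did not share the peak of its paralog. Its highest log2 fold change was 1.52 in cluster 7, where Ogn and Hp led, and it was also higher in cluster 3, at 0.82. Its detection in cluster 3 was 96.6%, compared with 75.9% outside. Thbs1 had a value of -0.49 there, which did not pass. In cluster 1 Thbs2 was lower, at -0.67, although 85.4% of the cells had it against 76.9% elsewhere. It was lower in cluster 4 at -1.30 and in cluster 11 at -2.20, and the values of -1.04 in cluster 2 and -0.91 in cluster 6 did not pass. Thbs2 had no entry in clusters 5, 8 and 9, which together held it at 98.0% of the level over all cells, with detection in 90.8% of their cells. A value for cluster 8 alone, where Thbs1 stood at -2.65, could not be solved for Thbs2.

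Ccn1 and Ccn2 encode heparin-binding, cysteine-rich proteins of the CCN family that engage integrins and are widely used as readouts of the mechanosensitive factors YAP and TEAD. Ccn2 (chromosome 10, 24595442 to 24598683, plus strand) followed Thbs1 closely. Clusters 0, 5, 10 and 9 held it higher, at 1.32, 1.00, 0.52 and 0.37. Detection in clusters 0, 5 and 9 was 86.0%, 87.5% and 83.3%, against 41.7%, 44.2% and 45.9% of the other cells. It was lower in clusters 2, 4, 6, 8 and 11, with log2 fold changes between -2.09 and -1.88. There it was found in 8.6%, 2.1%, 11.7%, 2.8% and 1.6% of the cells, so that Ccn2 was nearly undetected in clusters 4, 8 and 11. Because 1 is added to both means, a fold change levels off once the mean of a cluster nears 0, and these 5 values understate the change. In cluster 1 the remainder gave detection in 71.5% of the cells and a level of 116% of all cells.

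Ccn1 (chromosome 3, 145646976 to 145649981, minus strand) varied less than Ccn2. It was higher in cluster 0, at 0.55, and lower in clusters 4 and 11, at -1.03 and -1.94. The remaining values did not pass, among them 0.72, 0.39 and 0.37 for clusters 7, 1 and 5, and -0.49 and -0.59 for clusters 8 and 2. The paralogs also differed in detection, which over all cells was 77.6% for Ccn1 and 48.0% for Ccn2. In cluster 8, Ccn1 was found in 77.2% of the cells and Ccn2 in 2.8%, and in cluster 6 the values were 82.2% and 11.7%. Both genes were listed together in 8 clusters, with the same sign in 8 of 8.

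Promoter sequences (RefSeq, GRCm38.p6) were at hand for 6 of the 9 genes, Thbs2, Sparc, Postn, Tnc, Spp1 and Ccn1, and the 250 bases before each listed start were searched on both strands. The motif of TEAD factors (GGAATG), that of AP-1 (TGANTCA) and the CArG box, which binds SRF, occurred in 12.6%, 6.75% and 1.47% of the same stretch of 32851 promoters. Among the 6 genes, 1 held any of them. It was Ccn1, with a TEAD motif on the reverse strand from base -103 to base -98. Its upstream bases (chr3:145649986-145650235, minus strand) are shown because Ccn1 was the 1 gene with a match. Whether 1 match among 6 genes exceeds the shares above was not tested. The upstream bases of Ccn2 were not at hand, so the motif cannot be set against the difference between Ccn1 and Ccn2. Capitals mark the motif. A match of letters does not show that a factor binds.

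Ccn1: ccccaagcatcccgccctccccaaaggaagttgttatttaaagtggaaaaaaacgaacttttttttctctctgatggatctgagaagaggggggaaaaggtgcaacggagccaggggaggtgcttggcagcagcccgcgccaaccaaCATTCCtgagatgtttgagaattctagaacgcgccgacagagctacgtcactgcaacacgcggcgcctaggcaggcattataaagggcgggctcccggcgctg

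Sparc, Fn1 and Postn take part in collagen assembly and cell adhesion. Sparc encodes a collagen-binding glycoprotein also known as osteonectin, and Postn encodes periostin, which supports collagen crosslinking. Sparc (chromosome 11, 55394500 to 55423183, minus strand) was higher in clusters 1 and 0, at 0.89 and 0.38, and lower in clusters 6, 8, 4 and 11, at -0.65, -1.11, -2.11 and -3.17. In clusters 0, 1, 6, 8 and 11 its detection stayed between 96.9% and 100%. In cluster 11, 96.9% of the cells had Sparc against 96.7% of the others, while its level stood at 11.3% of that over all cells. Among its entries, detection of Sparc was lowest in clusters 4 and 10, at 73.0% and 82.2%. In the pooled clusters 5 and 9, which had no entry, its level was 112% of that over all cells.

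Fn1 (chromosome 1, 71585520 to 71653200, minus strand), the gene of fibronectin, was higher in cluster 1, at 0.55. It was lower in clusters 6, 4 and 8, at -0.54, -0.85 and -1.02, and in cluster 11, at -2.88. Cluster 11 still had Fn1 in 80.9% of its cells, but at 13.8% of the level over all cells. The 6 clusters without an entry, 0, 2, 5, 7, 9 and 10, held 51.0% of all cells and a pooled level of 107%.

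Postn (chromosome 3, 54361109 to 54391037, plus strand) was higher in cluster 0, at 0.64, and in cluster 10, at 0.31. Its values of 0.78 in cluster 3 and 0.62 in cluster 1 were larger than in cluster 10 and did not pass, with detection in 97.8% and 96.3% of the cells. It was lower in clusters 6, 2, 4 and 11, at -1.22, -1.28, -1.70 and -2.52, where 75.5%, 65.0%, 22.7% and 46.2% of the cells had it.

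Tnc encodes tenascin C, a glycoprotein of remodelling tissue that loosens the adhesion of cells to fibronectin, and Spp1 encodes osteopontin, an integrin-binding phosphoprotein also secreted by macrophages and bone cells. Tnc (chromosome 4, 63959785 to 64047015, minus strand) was called lower in clusters 4, 8 and 11, at -0.55, -1.10 and -1.56, and called higher in 0 clusters. Its positive values were 0.56 in cluster 0 and 0.41 in cluster 5, with detection in 82.2% and 85.9% of the cells against 53.4% and 54.7% of the others.

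Spp1 (chromosome 5, 104435118 to 104441050, plus strand) had the largest positive value of any of the 9 genes, 1.72 in cluster 3, led by Ccl8 and Mmp2. There its level was 266% of that over all cells, yet detection was 79.1% against 59.7% and the entry did not pass. It was called higher in cluster 10, at 0.26, and lower in clusters 4 and 11, at -1.83 and -2.99, and the value of -1.93 in cluster 8 did not pass. Cluster 8 and cluster 11 had Spp1 in 40.9% and 36.7% of their cells. Among the immune markers looked up, 0 of 6 had an entry in any cluster. The authors had taken out immune cells before this clustering, so that count cannot tell which cells made Spp1. Runx2 was the 1 of 5 osteogenic markers with an entry, at -0.32 in cluster 11, where it did not pass.

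**Figure D3:**
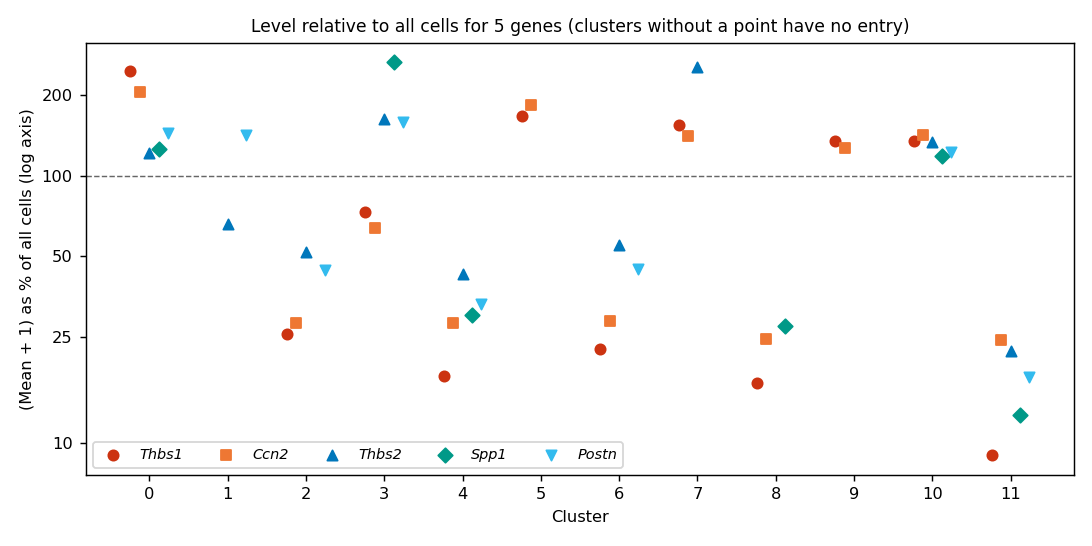
Level of Thbs1, Ccn2, Thbs2, Spp1 and Postn in each cluster, as the mean plus 1 in percent of the mean plus 1 over all cells, on a log axis with a dashed line at 100. In cluster 3, Thbs1 (73.5%) and Ccn2 (63.7%) lie below the line while Thbs2 (164%), Spp1 (266%) and Postn (160%) lie above it.

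Read by cluster, the called entries went in both directions in cluster 1 and in 1 direction in each other cluster. Clusters 3, 7 and 9 had 1 called gene each. Each count is set beside the share of the 3903 genes called in the same direction. Cluster 0, led by Thbs1, Tagln and Acta2, had 5 of the 9 genes higher (5.46% of all genes) and 0 lower (0.974%). The 5 were Thbs1, Ccn2, Postn, Ccn1 and Sparc. Cluster 1, led by Cxcl14 and Mmp3, had Sparc and Fn1 higher (4.38%) and Thbs2 lower (1.15%). Cluster 3 had Thbs2 higher (1.56%) and 0 lower (0.769%), and cluster 7 likewise had Thbs2 higher (2.46%) and 0 lower (0.999%). In cluster 3 the values of Thbs1 and Ccn2 were negative, at -0.49 and -0.71, and did not pass. In cluster 5, with Hist1h1b and Pclaf in the lead, Thbs1 and Ccn2 were higher (11.7%) and 0 genes lower (1.56%). Cluster 9, led by the mitotic genes Ube2c and Cenpf, had Ccn2 higher (7.84%) and 0 lower (0.538%).

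On the other side, cluster 11, led by the lipid genes Car3, Fabp5 and Fabp4, had 9 of 9 genes lower (21.5% of all genes) and 0 higher (22.3%). The median log2 fold change of the 9 genes was -2.52 there, against -0.30 over all entries of the cluster. Cluster 8, led by Gsn and Peg3, had 5 genes lower (6.61%) and 0 higher (4.18%), with a median of -1.11 against -0.37. The 5 were Thbs1, Ccn2, Sparc, Fn1 and Tnc. Cluster 2, led by A2m and Serpina3n, had Thbs1, Ccn2 and Postn lower (5.51%) and 0 higher (3.72%), with a median of -1.16 against -0.37. Cluster 6, a cycling cluster led by Hist1h1b and Top2a, had 5 genes lower (8.22%) and 0 higher (12.9%), with a median of -0.91 against -0.25. Clusters 5 and 6 are both led by Hist1h1b, and Thbs1 and Ccn2 were higher in the one and lower in the other, while Ccn1 had values of 0.37 and -0.46 that did not pass.

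Clusters 4 and 10 were read apart, because 97.9% and 99.9% of their entries were detected in fewer of their cells than elsewhere. Cluster 4 had 9 of 9 genes lower (37.7% of all genes) and 0 higher (12.1%), with detection of Ccn1 at 20.6% against 83.6%. Cluster 10 had Thbs2, Postn, Spp1 and Ccn2 higher (5.82%) and 0 lower (11.8%), yet these 4 genes were found in fewer of its cells, as Thbs2 in 38.5% against 79.4%. What part low detection plays in these means was not tested.

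Elsewhere, detection and mean mostly moved together. In 9 of the entries outside clusters 4 and 10 they parted, each time with a lower mean and detection in more of the cells of the cluster than of the others. These were Sparc in clusters 2, 6, 8 and 11, Fn1 and Ccn1 in cluster 6, Thbs2 in cluster 1, and Thbs1 and Ccn2 in cluster 3. Thbs1 in cluster 3 was the widest case, with detection in 90.2% of the cells against 71.9% and a log2 fold change of -0.49.

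**Figure D4:**
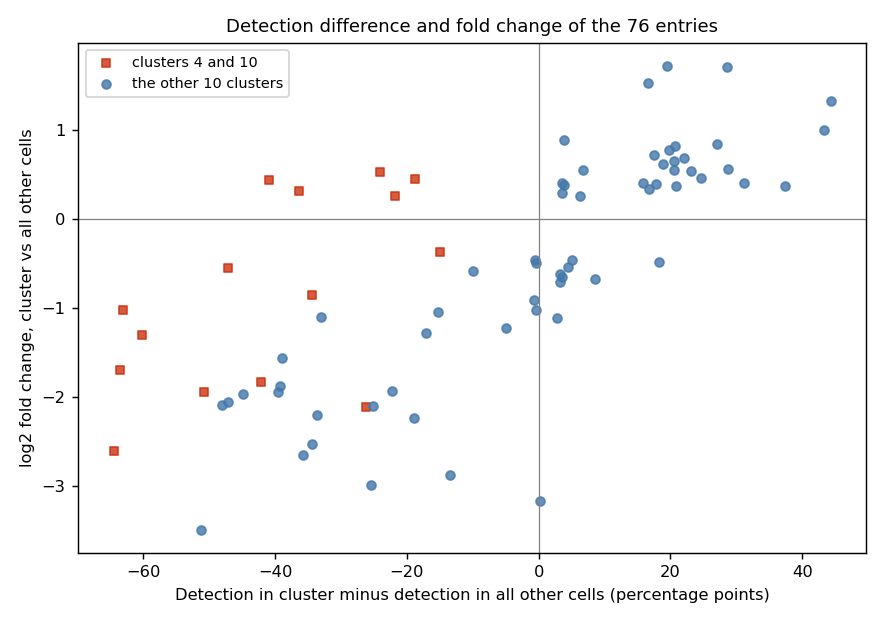
Each point is 1 of the 76 entries, placed by the difference of detection between the cluster and all other cells (percentage points, x axis) and by its log2 fold change (y axis). Squares are clusters 4 and 10, and 5 of them lie above 0 in fold change with negative differences of detection.

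The profiles over the 12 clusters were then set against each other, with clusters without an entry at 0. Pearson's r, a description over 12 clusters that share their cells as each other's background, ran from 0.56 for Postn and Tnc to 0.98 for Thbs1 and Ccn2, with a median of 0.78 over 36 pairs. Where both genes of a pair had an entry, the signs were the same in 202 of 225 cases. Of the 825 genes with at least 6 entries, those most like Thbs1 were Dstn (0.98), Ccn2 (0.98) and Tagln (0.98), and those most like Ccn2 were Dstn (0.99), Tpm1 (0.99) and Tagln (0.98), all genes of the actin cytoskeleton apart from Ccn2. Tnc was most like Inhba (0.91), Zyx (0.91) and Ncam1 (0.90).

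The other genes were most like matrix or membrane genes in part. Sparc was most like Bgn (0.99), Rcn3 (0.98) and Col1a2 (0.98), and Fn1 was most like Fbln2 (0.99), Col5a2 (0.98) and Col1a1 (0.97). For Spp1 the closest were Tspan4 (0.93), Cdh11 (0.92) and Col1a1 (0.91), for Postn Mxra7 (0.95), Cygb (0.95) and Chic2 (0.94), for Thbs2 Runx1t1 (0.92), Itgb5 (0.88) and Ube2r2 (0.88), and for Ccn1 Tmsb10 (0.95), Bgn (0.95) and Igfbp7 (0.94).

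Markers of contractile or mural cells moved with Thbs1 and Ccn2 in many of the clusters. Of 9 such markers, Acta2, Tagln, Myl9 and Cnn1 had entries, while Myh11, Rgs5, Cspg4, Notch3 and Des had 0. Clusters 0, 1, 5 and 9 each had 3 higher, where 5.46%, 4.38%, 11.7% and 7.84% of all genes were higher. Clusters 2, 4, 8 and 11 each had 4 lower, where 5.51%, 37.7%, 6.61% and 21.5% of all genes were lower. Clusters 3 and 6 each had 3 lower (0.769% and 8.22%). Acta2, smooth muscle actin, was higher in clusters 0, 5 and 9, at 1.45, 1.41 and 1.05, and lower in clusters 2, 4, 6, 8 and 11, at -4.11, -3.85, -3.60, -4.46 and -4.37. In cluster 3 Acta2 was lower, at -1.52, and in cluster 1 it was higher, at 0.53. The remainders of Thbs1 and Ccn2 in cluster 1 were 86.2% and 116% of the level over all cells. Cluster 10 listed 0 of these markers, though Ccn2 was called higher there, at 0.52. The part of a contractile state or of another cell type in the values of Thbs1 and Ccn2 was not tested. Endothelial and glial markers had 0 entries among 5 and 4, but the authors had taken out such cells before this clustering.

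Adipocyte markers moved the other way in some of these clusters. Of 11 markers, 10 had entries, and clusters 11, 4 and 8 had 10, 7 and 5 of them higher, while 5 were lower in cluster 0. The shares of all genes called in these directions were 22.3%, 12.1%, 4.18% and 0.974%. The largest value in size was that of Fabp4, a fatty acid carrier, at -4.59 in cluster 1, and Scd1, a desaturase of lipid synthesis, reached 3.24 in cluster 4. In cluster 2, where Thbs1, Ccn2 and Postn were lower, 3 adipocyte markers were listed, of which 0 were higher and 1 was lower. The differentiation markers Col5a3 and Serpina3n were both higher in clusters 2, 4, 6 and 8. In cluster 4, however, both were found in fewer of the cells, Col5a3 in 28.7% against 38.8% and Serpina3n in 39.7% against 57.6%. In cluster 11, where 9 of the 9 glycoprotein genes were lower, Serpina3n was lower too, at -0.41, and Col5a3 had no entry.

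Other matricellular genes were read from a list of 32, of which 21 had an entry. In cluster 11, 12 of them were lower and 1 was higher, where 21.5% and 22.3% of all genes were. Cluster 4 had 16 lower and 0 higher (37.7% and 12.1% of all genes), and cluster 8 had 9 lower and 0 higher (6.61% and 4.18%). Cluster 6 had 8 lower and 1 higher (8.22% and 12.9%), and cluster 2 had 5 lower and 1 higher (5.51% and 3.72%). In the upward direction, cluster 1 had 8 higher and 0 lower (4.38% and 1.15%), cluster 0 had 3 higher and 0 lower (5.46% and 0.974%), and cluster 10 had 5 higher and 2 lower (5.82% and 11.8%). The largest values in size were those of Fbln2, a fibulin of elastic fibres, and Mgp, matrix Gla protein, at -3.35 and -3.07 in cluster 11. Fbln2 was higher in cluster 1, at 0.81, and Mgp in clusters 3 and 10, at 0.88 and 0.37. In cluster 10, however, Mgp was found in 40.8% of the cells against 70.4%. Further CCN genes were higher in cluster 1. Ccn3 was higher in cluster 1, at 1.41, with detection in 70.6% of the cells against 19.8%, and had no entry in cluster 0. It was also called higher in cluster 10, at 0.30, though in 6.9% of the cells against 27.7%. Ccn5 was higher in cluster 1, at 1.55, with 97.4% against 47.7%, and in cluster 7, at 0.60, and also had no entry in cluster 0. Ccn4 was higher in clusters 0, 5 and 1, at 0.79, 0.69 and 0.53. All 3 were lower in clusters 2, 4, 6, 8 and 11. The 1 gene of the list that was higher in cluster 2 and in cluster 6 was Nid2, which encodes the basement membrane linker nidogen 2, at 1.28 and 0.59.

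Among 20 target genes of YAP and TEAD other than Ccn1 and Ccn2, 14 had an entry. In cluster 0, 4 were higher and 0 lower, namely F3, Myof, Ccdc80 and Crim1, at 0.70, 0.52, 0.49 and 0.42. The share of all genes higher in cluster 0 was 5.46%. Cluster 11 had 7 of the 20 lower (21.5% of all genes), cluster 8 had 4 (6.61%) and cluster 4 had 10 (37.7%), each with 0 higher. In cluster 10 F3 was called higher, at 0.38, though in 43.5% of the cells against 77.3%. The largest value in size was that of F3, the gene of tissue factor, at -2.77 in cluster 11. Ankrd1, a target widely read beside Ccn1 and Ccn2, passed the threshold in 0 of the 5 clusters that listed it, with values from -0.56 to 0.60.

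Of 25 receptor genes for these proteins, 18 had an entry. Cluster 0 had 2 higher and 1 lower (5.46% and 0.974% of all genes), and cluster 2 had 3 and 2 (3.72% and 5.51%). Clusters 5 and 6 had 2 and 1 higher (11.7% and 12.9%) and 2 and 2 lower (1.56% and 8.22%). Cluster 4 had 2 higher and 9 lower (12.1% and 37.7%). Cluster 8 had 2 and 4 (4.18% and 6.61%), and cluster 11 had 2 and 10 (22.3% and 21.5%). Sdc4, Itga5 and Lrp1 were higher in cluster 2, at 0.99, 0.62 and 0.56, and Lrp1 in cluster 8, at 0.54. Itgb1, the integrin beta chain shared by fibronectin and thrombospondin receptors, was higher in clusters 0 and 5, at 0.71 and 0.61, and lower in clusters 2, 4, 6, 8 and 11, at -0.93, -1.41, -0.82, -1.12 and -1.50. Cd36, a receptor of thrombospondins and a fatty acid transporter, ran counter to Thbs1 in some clusters. It was lower in cluster 0, at -1.60, with detection in 2.5% of the cells, and higher in clusters 4, 8 and 11, at 2.24, 1.64 and 2.74, with 69.0%, 87.7% and 99.8%. In cluster 2 Cd36 and Thbs1 were both lower, though Cd36 was detected in 68.4% of its cells against 24.1%. Cd36 was also lower in clusters 1 and 3, at -1.75 and -1.67. The level of Thbs1 in these clusters was 86.2% (a remainder) and 73.5% of that over all cells. Cd47, the other thrombospondin receptor, was lower in clusters 4, 10 and 11, at -0.28, -0.39 and -0.66.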

How the data were processed

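Single cells of the 8 samples were captured in droplets with a 3′ chemistry. The authors used Cell Ranger 6.0.0 (reads on mm10, captures aggregated and scaled to equal read depth) and Seurat (cells filtered and log-normalized, and clustered again once endothelial, glial and immune cells had been taken out), then set every cluster against the rest with MAST. Removal of doublets is not described, and none was possible on the table. The deposited table gives log2 fold changes (1 added to each mean), the detected fraction of the cells inside and outside the cluster, and p-values with adjusted p-values. These log2 values and p-values are the authors' comparison of clusters. Columns of single samples set aside numbered 0. Depth and the absolute number of cells behind a value are unknown, so no interval was computed. The solved shares of all cells ran from 14.3% for cluster 0 down to 3.22% for cluster 10 and 1.50% for cluster 11. Groups came from the labels. In the table, 7 gene symbols had been turned into dates. They are among the 3903 symbols counted and stayed out of the shares and profiles.

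The 9 genes, the gene lists and the call rule were chosen with earlier results of these data known. Lists covered other matricellular genes, receptors, YAP and TEAD targets, the TGF-beta pathway, and contractile, progenitor, proliferating, differentiating, adipocyte, thermogenic, osteogenic, mesothelial, immune, endothelial and glial markers. Every one of the 9 genes is named, with the 3 genes of most similar profile among those with at least 6 entries and, in each list with called entries, the gene or genes with the largest absolute called value. Other genes of the lists, among them Ccn3, Ccn4, Ccn5, Nid2, Itgb1, Cd47, Sdc4, Itga5, Lrp1, Ankrd1 and most TGF-beta genes, were named after their values had been seen. Shares of the clusters were solved by least squares from the detection of the 10 genes listed in every cluster. From them came the detection over all cells, the level (mean plus 1) relative to all cells, and the pooled remainder of clusters without an entry. The solver was tested on simulated data. Coordinates are from GENCODE M21 (GRCm38). Python 3.11.15, numpy 2.4.6, pandas 2.3.3 and matplotlib 3.10.9 were used. The alternatives were other minimums of fold change (0.5 and 1) and detection (25%), all entries whatever their p, agreement of detection and fold change in direction, other shares, and leaving out clusters 4 and 10.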

Additional observations from a re-analysis of the deposited data

How the results depend on the processing

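Of 16 entries called higher, 12 were left without clusters 4 and 10, 12 with detection in the direction of the fold change, 11 at a minimum log2 fold change of 0.5 and 16 at a minimum detection of 25%. The count moved by over 1.5 times at a minimum of 1, to 3, and with every deposited entry counted, to 33, as fewer or more entries qualify by construction. The 32 lower entries became 23 without clusters 4 and 10, 27 at a minimum of 1 and 43 with every deposited entry. The cluster of the highest value was the same for 9 of the 9 genes without clusters 4 and 10, for 5 by the difference of detection and for 4 by detection in the cluster, and the cause was not tested. Detection over all cells moved by less than 0.2 percentage points for 9 of 9 genes with the other shares. Of the 27 most similar genes named (3 for each gene), 21 stayed among the 3 closest without clusters 4 and 10, but 4 did when the comparison was limited to clusters in which both genes had an entry. No paired analysis was possible because the pooled cells give no values for single samples. The unknown number of cells and reads behind each value sets a limit that could not be measured.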

Other observations

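Some TGF-beta receptor genes were called higher in clusters 2, 6 and 8, where Thbs1 and Ccn2 were lower. In cluster 11 Tgfbr1 and Tgfbr3 were lower, at -0.42 and -0.78. The part of TGF-beta signalling in the values of Thbs1 and Ccn2 was not tested. Of 15 genes of the TGF-beta pathway, 11 had an entry. In cluster 2, Tgfbr1, Tgfbr2 and Tgfbr3 were higher, at 0.70, 1.02 and 0.95, and detection of Tgfbr3 was 96.9% inside and 71.4% outside the cluster. Tgfbr2 was also higher in cluster 8, at 0.83, and Tgfbr1 and Tgfbr3 in cluster 6, at 0.35 and 0.47. The shares of all genes called higher in clusters 2, 6 and 8 were 3.72%, 12.9% and 4.18%. Smad7 was lower in clusters 4 and 11, at -0.40 and -0.88, and Skil in cluster 11, at -0.33. The ligand gene Tgfb1 was lower in clusters 4 and 11, at -0.29 and -0.41. Tgfbr3 was lower in cluster 5, at -0.70. Cluster 10 had Tgfbr2 and Tgfbr3 lower, at -0.47 and -0.48. The ligand gene Tgfb3 was called higher there, at 0.29, though in 2.8% of the cells against 14.1%. Ltbp2, a gene of the latent TGF-beta binding family, was higher in clusters 5 and 9, at 0.47 and 0.28, and lower in clusters 4, 8 and 11, at -0.74, -0.77 and -0.75. In cluster 4, another cluster with low Thbs1 and Ccn2, Tgfbr1 was called higher, at 0.26. It was found there in fewer of the cells, 12.2% against 40.1% of the others. Of the 15 genes of the pathway, 7 were lower and 0 higher in cluster 11, where 21.5% of all genes were lower.

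Of the 10 progenitor markers, 6 had an entry, and 5 of the 10 were lower in cluster 4 and 5 in cluster 11, where 37.7% and 21.5% of all genes were lower. F3 and Mmp3 had the largest values in size, -2.77 and -2.58 in cluster 11. The 8 proliferation markers were all listed somewhere, and clusters 5, 6 and 9 had 7, 8 and 7 of them higher (11.7%, 12.9% and 7.84% of all genes). Hist1h1b had the largest value, 2.67 in cluster 6. Thbs1 and Ccn2 were both higher in cluster 5 and both lower in cluster 6. Of the 5 thermogenic markers, 3 had an entry, and 3 were higher in cluster 11 (22.3% of all genes), where 9 of the 9 glycoprotein genes were lower. Cox7a1 had the largest value of these, 1.21 in cluster 4. The mesothelial marker Krt19 was the 1 of 4 with an entry, at 0.33 in cluster 0 and 0.32 in cluster 9, and did not pass.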
